A study of Homo sapiens with 4 samples.

Results

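The GATA2 peaks examined here are those that overlap the body of 9 stem cell regulator genes, or the 50 kb on either side of it, in the deposited peak lists of K562 cells. The genes are PBX3, MEIS1, MEIS2, HOXA9, HOXB4, HHEX, HLF, TEAD1 and MECOM, with gene bodies taken from GENCODE release 44 on hg38. By this rule 47 of 31777 asynchronous peaks and 2 of 1648 mitotic peaks were found, and no 2 windows overlapped. K562 is an established human cell line from a chronic myeloid leukaemia that expresses its own GATA2. The asynchronous library came from cycling cells crosslinked first with disuccinimidyl glutarate and then with formaldehyde. The mitotic library came from nocodazole-arrested cells that received the same double fixation and were sorted as MPM-2 positive over several rounds, with less than 10% asynchronous cells left according to the labels. An antibody against GATA2 was used for both, there was 1 library per condition, and the input libraries were not used here. No difference between the conditions therefore has a replicate check. The lists give only the position of each peak, so the depth is unknown and a missing peak may be a site below the limit of detection.

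All 9 genes encode DNA-binding proteins with known roles in blood stem cells or in their formation. PBX3, MEIS1 and MEIS2 belong to the TALE homeobox family, whose members bind DNA together with HOX proteins such as HOXA9 and HOXB4. HHEX is a homeobox protein of early blood and endothelial progenitors, HLF is a PAR bZIP factor that marks haematopoietic stem cells, and TEAD1 is the DNA-binding partner of the Hippo pathway cofactors YAP and TAZ. MECOM, also called EVI1, is a zinc finger factor needed for stem cell maintenance, and its gene has start sites both at its upstream end and deep inside it. GATA2 is a zinc finger factor that binds GATA sequences at the enhancers of stem and progenitor cells. A transcription factor that stays on its sites when chromosomes condense is called a mitotic bookmark, and an asynchronous peak is called bookmarked here where it has 1 base or more in common with a mitotic one.

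In mitotic cells, GATA2 peaks were found in the windows of HLF and TEAD1 and in none of the other 7 windows. By the same rule, 11.7% of all protein-coding windows held a mitotic peak. Both mitotic peaks were distal, and both overlapped an asynchronous peak, as 97.5% of all mitotic peaks did. The part of the asynchronous cells left after sorting in these peaks was not tested. Their sequences are given on the plus strand of hg38, limited to the central 300 bases, because they are the mitotic sites of the set. Capitals mark matches to the strings AGATAA and AGATAG, and also TGATAA and TGATAG, on either strand, called GATA matches from here on. A match on the minus strand therefore starts with TTATC or with CTATC.
HLF, mitotic peak 1, chr17:55344544-55344843: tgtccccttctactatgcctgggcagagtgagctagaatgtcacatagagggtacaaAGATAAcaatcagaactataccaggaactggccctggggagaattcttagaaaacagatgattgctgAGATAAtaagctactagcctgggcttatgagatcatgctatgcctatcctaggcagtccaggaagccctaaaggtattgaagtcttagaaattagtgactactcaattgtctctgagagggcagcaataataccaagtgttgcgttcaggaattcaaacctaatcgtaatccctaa
TEAD1, mitotic peak 1, chr11:12853649-12853948: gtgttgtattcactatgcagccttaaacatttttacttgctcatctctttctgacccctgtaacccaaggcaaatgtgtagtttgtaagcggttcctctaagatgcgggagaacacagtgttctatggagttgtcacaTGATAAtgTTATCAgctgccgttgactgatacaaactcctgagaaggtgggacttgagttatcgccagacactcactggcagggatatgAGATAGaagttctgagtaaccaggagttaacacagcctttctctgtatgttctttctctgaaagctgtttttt

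The HLF mitotic peak, on chromosome 17 from 55344382 to 55345004, was found past HLF, 19195 bp from its body, with its midpoint 25740 bp from the nearest HLF TSS (transcription start site). It was 623 bp wide, wider than 96.7% of the mitotic list. It shared 486 bp with the asynchronous peak from 55344179 to 55344867, which is 70.5% of that peak, and ran 137 bp past its end. Of the 4 GATA matches in the asynchronous peak, 3 lay in the mitotic peak. They are AGATAG from 55344463 to 55344468, AGATAA from 55344601 to 55344606 and AGATAA from 55344668 to 55344673. The latter 2 are the capitals of the printed stretch. The asynchronous peak was 689 bp wide, wider than 90.4% of its list.

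The TEAD1 mitotic peak, on chromosome 11 from 12853643 to 12853954, fell within intron 3 of the canonical TEAD1 transcript, 179377 bp downstream of its start. At 312 bp it was close to the middle of the mitotic list, wider than 54.2% of it. It shared 295 bp with the asynchronous peak from 12853660 to 12854268, which is 48.4% of that peak, and it sat at the peak's start side, with 166 bp between the midpoints. It held 3 GATA matches. Of these, TGATAA from 12853787 to 12853792 and its mirror TTATCA from 12853795 to 12853800 face each other across 2 bases. The third was AGATAG from 12853876 to 12853881, and an AGATAA from 12853981 to 12853986 lay in the part of the asynchronous peak outside the mitotic one. A TGATAA and a TTATCA with 2 bases between them occurred in 10 of all 31777 asynchronous peaks, and with 0 to 10 bases between them in 83. Of the 1600 bookmarked asynchronous peaks 5 held such a pair with 0 to 10 bases between, or 0.312% (95% exact binomial interval 0.102% to 0.728%), and 0.258% (0.204% to 0.322%) of the asynchronous-only peaks did. The pair was searched for after the sequence had been seen, and the TEAD1 peak it was taken from is counted among the 5.

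**Figure D1:**
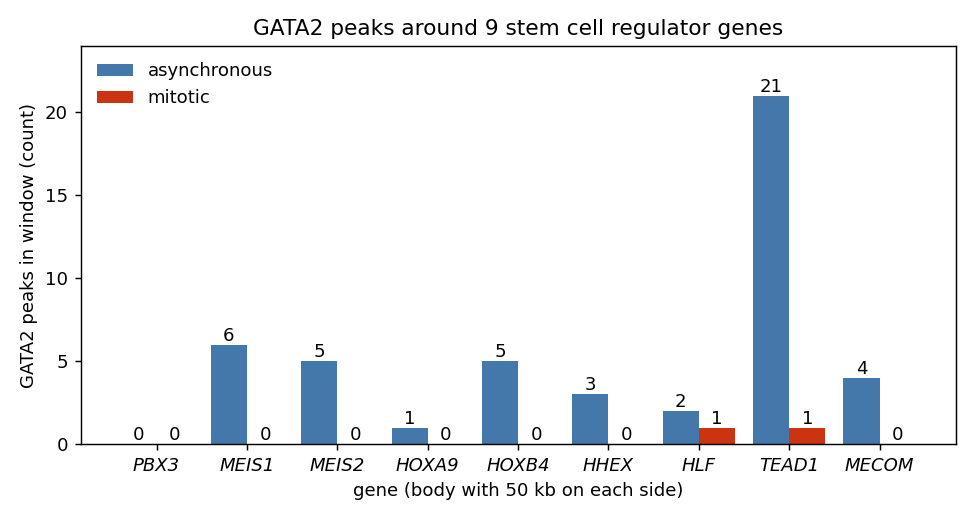
Number of GATA2 peaks (vertical axis) in the window of each gene (horizontal axis), in the asynchronous (blue) and mitotic (red) list, with 1 library each. TEAD1 holds 21 of the 47 asynchronous peaks, PBX3 none, and mitotic peaks are found at HLF and TEAD1 with 1 each.

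Across the 9 windows, 2 of 47 asynchronous peaks were bookmarked, or 4.26% (95% exact binomial interval 0.520% to 14.5%). Over all asynchronous peaks the share was 5.04%, inside that interval. By gene, 2 of 9 windows held a mitotic peak, and 11.7% of the windows drawn in the same way around all 20033 protein-coding genes did. At least 1 asynchronous peak lay in 8 of the 9 windows, beside 76.0% of all protein-coding windows. Neither comparison by gene allows for the length of the windows. Per 100 kb, there were 0.0832 mitotic peaks in the 9 windows pooled, which hold 2, and 0.0534 over the genome. The genome value is taken over the full length of 24 chromosomes, with sequence outside gene windows, so it is not a comparison with like windows. With 9 genes and 1 library per condition, no test of these differences was made. The intervals here and further on cover counting error over peaks, and no replicate culture was there to give another error.

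TEAD1 (ENSG00000187079, chromosome 11, 12674421 to 12944737, plus strand) had the most asynchronous peaks. Its window held 21 peaks, which is 44.7% of the 47, and 18 of them overlapped the gene body. Only 0.150% of protein-coding windows held more asynchronous peaks. The gene is long, so the count was also put on the length of the window. This gave 5.67 peaks per 100 kb, higher than in 95.7% of protein-coding windows, whose median was 1.41 and whose 95th percentile was 5.43. The peaks of the gene body were spread over 201140 bp and began 10712 bp downstream of the canonical start by the midpoint of the first, so no peak lay at the canonical promoter. By midpoint, 5 lay in intron 2, 1 in exon 3, 9 in intron 3, 2 in intron 5 and 1 in intron 9 of the canonical transcript. The other 3 lay downstream of the gene, and RASSF10 had the closest protein-coding TSS to each of them. Intron 3 thus held 9 asynchronous peaks, of which 1, the peak described above, was bookmarked.

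Widths in the TEAD1 window ran from 183 to 728 bp with a median of 393 bp. The bookmarked peak was not the widest. At 609 bp it came after the peak from 12686975 to 12687702 in intron 2, which was 728 bp wide, held 4 GATA matches and had no mitotic counterpart. The peak with the most GATA matches of all 47 was also in intron 2, from 12739008 to 12739385, with 10 matches in 378 bp and no mitotic overlap. Its central 300 bases are shown because most matches sit in a tandem array, where copies of CTATCT follow each other, and they hold 9 of the 10 matches.
TEAD1, asynchronous peak 5, chr11:12739047-12739346: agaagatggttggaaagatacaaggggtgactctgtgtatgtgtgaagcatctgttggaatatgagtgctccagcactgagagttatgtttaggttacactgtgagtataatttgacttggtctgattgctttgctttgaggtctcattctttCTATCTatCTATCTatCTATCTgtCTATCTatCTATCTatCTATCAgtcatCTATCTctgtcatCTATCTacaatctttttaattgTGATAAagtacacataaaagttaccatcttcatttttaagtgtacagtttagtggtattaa

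A single TEAD1 peak lay within 3 kb of a TSS of the gene. It runs from 12877063 to 12877245 in intron 5, 2289 bp upstream of an internal start and 202733 bp downstream of the canonical one. It was narrow, at 183 bp, and is shown because its 2 GATA matches, both on the plus strand, stand close together. The only peak of the 47 without a GATA match was also at TEAD1, from 12684978 to 12685288 in intron 2.
TEAD1, asynchronous peak 17, chr11:12877063-12877245: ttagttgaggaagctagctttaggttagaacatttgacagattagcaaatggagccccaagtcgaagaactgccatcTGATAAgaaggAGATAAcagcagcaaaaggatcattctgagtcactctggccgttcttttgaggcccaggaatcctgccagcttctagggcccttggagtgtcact

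**Figure D2:**
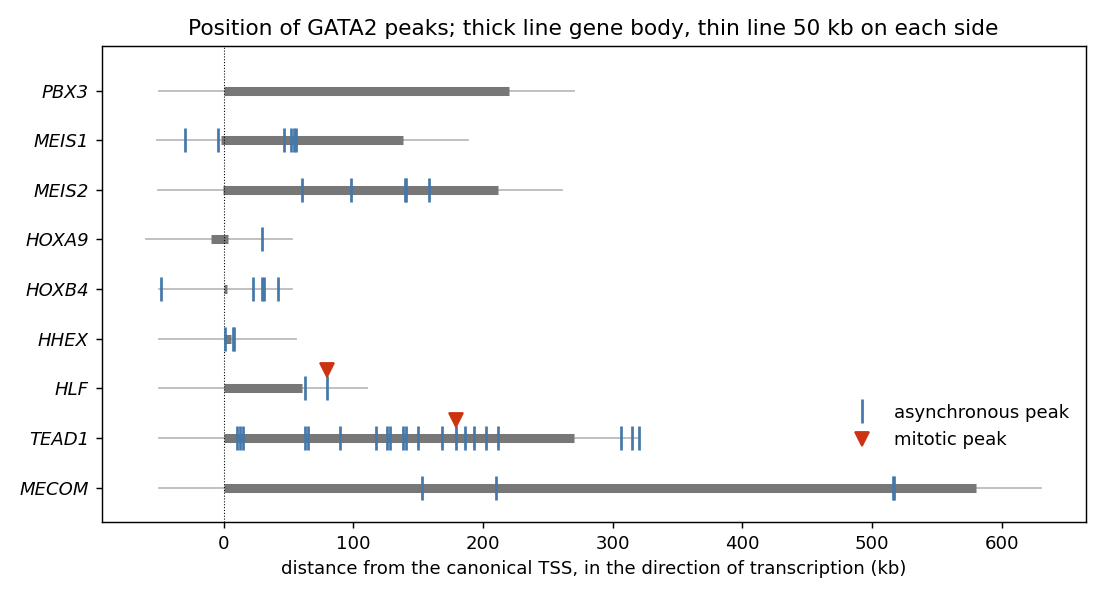
Position of each GATA2 peak midpoint along the 9 genes, as distance in kb from the canonical TSS in the direction of transcription (horizontal axis), with 1 row per gene. Blue ticks are asynchronous and red triangles mitotic peaks. The 18 TEAD1 peaks of the gene body are spread over 201140 bp, the 4 MECOM peaks lie in 3 places, and the mitotic peaks lie 79733 bp (HLF) and 179377 bp (TEAD1) from the start.

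Among the TALE genes, MEIS1 and MEIS2 had asynchronous peaks and PBX3 had none. PBX3 (ENSG00000167081), on chromosome 9 from 125747345 to 125967377, had no peak of either list in its window of 320033 bp. The nearest asynchronous peak lay 58207 bp from the gene body and the nearest mitotic peak 462162 bp from it. No asynchronous peak was found in 4802 of the 20033 protein-coding windows. MEIS1 (ENSG00000143995, chromosome 2, 66433452 to 66573869, plus strand) had 6 asynchronous peaks and no mitotic peak. Its density of 2.50 peaks per 100 kb was higher than in 70.5% of protein-coding windows.

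In MEIS1, 4 of the 6 peaks lay together in intron 7 of the canonical transcript, in the stretch 66481100 to 66491025, between 46221 and 55648 bp downstream of its start. Their widths were 494, 280, 284 and 504 bp, with 3, 2, 2 and 3 GATA matches. The other 2 lay upstream of the gene. The farther one, from 66405601 to 66405756, was the narrowest of the 47 at 156 bp, and it held a HOX with PBX string, a MEIS string and a RUNX string beside 2 GATA matches. The nearer one, from 66430610 to 66430910, lay 2692 bp upstream of the nearest MEIS1 TSS. It is shown because its 2 GATA matches, TGATAA and TTATCA, face each other as in the mitotic peak of TEAD1, here with 4 bases between them.
MEIS1, asynchronous peak 2, chr2:66430611-66430910: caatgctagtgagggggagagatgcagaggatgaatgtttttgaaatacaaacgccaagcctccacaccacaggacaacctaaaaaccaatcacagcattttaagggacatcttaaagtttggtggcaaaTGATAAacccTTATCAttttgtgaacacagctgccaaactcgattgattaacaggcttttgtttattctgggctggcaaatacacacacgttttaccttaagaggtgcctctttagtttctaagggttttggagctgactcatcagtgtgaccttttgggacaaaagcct

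The intron 7 peak from 66486867 to 66487146 held the only GATA:E-box composite of the 47 peaks. The composite is CTG and GATAA with 8 bases between them, the arrangement known from joint binding of GATA factors and TAL1. Here it ran from 66487034 to 66487049. The composite was thus in 2.13% of the 47 peaks (exact binomial interval 0.0539% to 11.3%), beside 8.55% of all asynchronous peaks. That interval includes the share of all peaks, so no excess of composites was seen in the set.

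MEIS2 (ENSG00000134138, chromosome 15, 36889204 to 37101299, minus strand) had 5 asynchronous peaks and no mitotic peak, at 1.60 peaks per 100 kb. All 5 lay inside the gene, in introns 7, 8 and 9 of the canonical transcript, and none within 60 kb of its start. Their widths ran from 180 to 422 bp, and 4 of the 5 were below the median width of all asynchronous peaks, 378 bp. The peak from 37040096 to 37040329 lay 2824 bp upstream of an internal MEIS2 TSS. It is shown as the only one of the 5 near an annotated start, and it held 3 GATA matches.
MEIS2, asynchronous peak 5, chr15:37040096-37040329: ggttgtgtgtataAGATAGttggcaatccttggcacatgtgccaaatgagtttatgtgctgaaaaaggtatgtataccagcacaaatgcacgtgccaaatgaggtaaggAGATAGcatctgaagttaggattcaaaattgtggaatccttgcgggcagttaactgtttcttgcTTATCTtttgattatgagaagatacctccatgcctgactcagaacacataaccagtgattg

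At the HOX genes, peaks lay around the members and not in them. HOXA9 (ENSG00000078399), on chromosome 7 from 27162438 to 27175180, had 1 asynchronous peak in its window, from 27135986 to 27136309, in the body of the neighbouring HOXA3 and 29310 bp from the nearest HOXA9 TSS. HOXB4 (ENSG00000182742), on chromosome 17 from 48575507 to 48578350, had 5, or 4.86 per 100 kb, higher than in 93.1% of protein-coding windows. None of the 5 overlapped HOXB4, and the nearest lay 19928 bp from its body. By the nearest protein-coding TSS they belonged to HOXB1, HOXB2, HOXB3 and HOXB9, the last with its peak 215 bp from the TSS. The HOXB peaks were narrow. Their widths were 195, 459, 192, 201 and 198 bp, and the 4 narrow ones were wider than 6.03% to 8.54% of the list. No mitotic peak lay within 1161317 bp of HOXB4. The peak closest to HOXB1, from 48536249 to 48536443, held the most GATA matches of the 5, with 7. Most of these sit in a tandem array of CTATCT copies, as in the TEAD1 peak with the most matches.

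HHEX (ENSG00000152804, chromosome 10, 92689955 to 92695647, plus strand) was the only member with a peak within 3 kb of its canonical TSS. That peak, from 92690743 to 92691125, lay in intron 1, 979 bp downstream of the canonical start and 886 bp upstream of another. It was 383 bp wide and held 1 GATA match, TGATAG from 92690941 to 92690946. The central 300 bases of the peak are shown as the only site near the canonical start of a member.
HHEX, asynchronous peak 1, chr10:92690785-92691084: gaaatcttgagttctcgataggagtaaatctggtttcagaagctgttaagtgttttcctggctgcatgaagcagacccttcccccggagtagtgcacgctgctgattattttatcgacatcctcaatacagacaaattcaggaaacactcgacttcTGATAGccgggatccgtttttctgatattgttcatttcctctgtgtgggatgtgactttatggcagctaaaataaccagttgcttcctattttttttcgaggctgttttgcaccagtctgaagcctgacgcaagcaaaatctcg

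The other 2 HHEX peaks lay just past the 3′ end of the gene, 591 bp apart. The wider one, from 92696649 to 92697374, measured 726 bp, wider than 92.3% of the list. It held the only TEAD string of the 47 peaks and a MEIS string, but only 1 GATA match, at its very end. None of the 3 was bookmarked. A mitotic peak from 92756144 to 92756650 lay outside the window, 60497 bp beyond the gene body, inside an asynchronous peak of 993 bp from 92755982 to 92756974. Among protein-coding genes HHEX had the TSS closest to it, 64365 bp away. It held 4 GATA matches. At HOXA9, a mitotic peak from 27071596 to 27071960 also lay outside the window, 90478 bp from the gene body, with 5 GATA matches. With windows of 100 kb on each side, 4 of 9 genes would hold a mitotic peak in place of 2, beside 18.5% of protein-coding windows of that rule in place of 11.7%.

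HLF (ENSG00000108924, chromosome 17, 55264960 to 55325187, plus strand) had 2 asynchronous peaks, both past its 3′ end, at 1.25 per 100 kb. The bookmarked one was 689 bp wide and the other, from 55327833 to 55328015, 183 bp wide with 1 GATA match. MECOM (ENSG00000085276, chromosome 3, 169083499 to 169663775, minus strand) had 4 asynchronous peaks and no mitotic peak. They were few for so long a gene, at 0.588 per 100 kb, lower than the protein-coding median of 1.41. All 4 were wide, at 535, 667, 715 and 645 bp, wider than 77.2% to 91.8% of the list. The nearest mitotic peak lay 925918 bp from the gene.

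A pair of the MECOM peaks, 263 bp apart, lay at internal start sites of the gene. The peak from 169146187 to 169146721 had its midpoint 85 bp from a MECOM TSS and the peak from 169146985 to 169147651 had it 416 bp from one. Both lay in intron 2 of the canonical transcript, more than 516 kb from its upstream start, and they shared 232 and 230 bp with RefSeq promoter windows of MECOM, build GRCh38.p14. The first held 1 GATA match, AGATAA from 169146563 to 169146568. The second held 3, TGATAA on the minus strand from 169147138 to 169147143, AGATAA on the minus strand from 169147163 to 169147168 and AGATAG on the minus strand from 169147446 to 169147451. Their sequence is not printed because the peaks run into untranslated exons. The other MECOM peaks, from 169453216 to 169453930 and from 169510346 to 169510990, lay in intron 1 with 6 and 4 GATA matches and 152950 bp or more from any MECOM TSS.

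**Figure D3:**
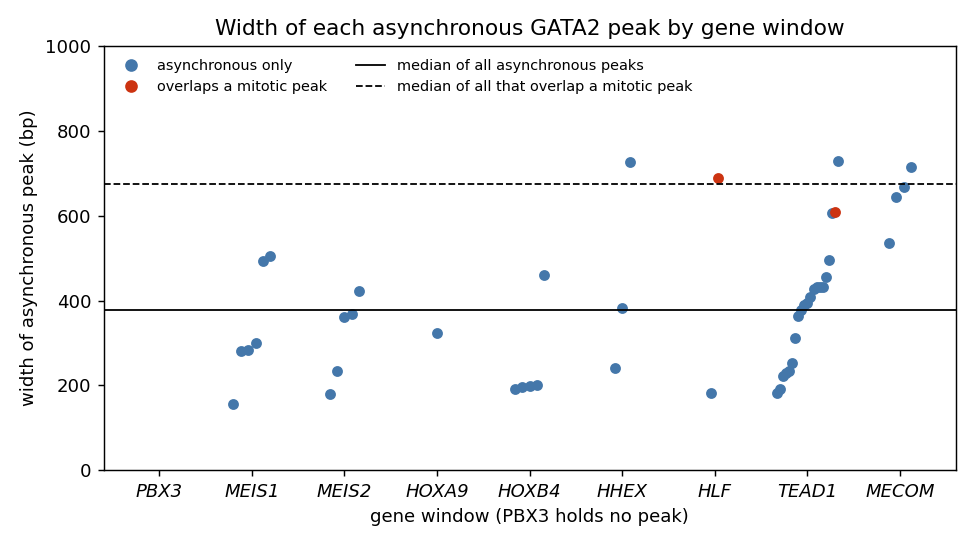
Width in bp (vertical axis) of each asynchronous GATA2 peak, by gene window (horizontal axis). Red points overlap a mitotic peak, the solid line is the median of all asynchronous peaks (378 bp) and the dashed line the median of all that overlap a mitotic peak (674 bp). The 2 red points, at 689 and 609 bp, are near the dashed line, and all 4 MECOM points, in blue, lie between 535 and 715 bp.

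Peak width was the only measure of a peak's size in the lists. The median over the 47 peaks was 378 bp, with quartiles of 233.5 and 476.5 bp. The median of all 31777 was the same, and their quartiles were 267 and 518 bp. The 2 bookmarked peaks measured 689 and 609 bp, and the 45 asynchronous-only peaks had a median of 369 bp. They were not the only wide peaks in these windows. A further 5 peaks, 3 at MECOM, 1 at HHEX and 1 at TEAD1, were at least as wide as the bookmarked TEAD1 peak and had no mitotic overlap. In the whole list, 20.7% (19.5% to 21.9%) of peaks at least that wide were bookmarked.

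Neighbours and position were compared with the whole list. Another asynchronous peak lay within 2 kb of 20 of the 47 peaks, or 42.6% (95% exact binomial interval 28.3% to 57.8%), beside 21.3% (20.9% to 21.8%) of all asynchronous peaks. Introns of protein-coding genes held 27 of the 47, or 57.4% (42.2% to 71.7%), beside 38.2% (37.6% to 38.7%) of all. Intergenic sequence held 10, or 21.3% (10.7% to 35.7%), beside 39.4% (38.8% to 39.9%), and 1 lay in an exon. These 3 intervals of the 47 peaks leave out the shares of the whole list. Without TEAD1, 10 of 26 peaks had such a neighbour, or 38.5% (20.2% to 59.4%), 11 were intronic, or 42.3% (23.4% to 63.1%), and 7 were intergenic, or 26.9% (11.6% to 47.8%). Each of these intervals includes the share of the whole list, but with 26 peaks they are also wider. The intron share thus fell from 57.4% to 42.3%, near the 38.2% of the whole list. The neighbour and intergenic shares moved less. The part of TEAD1 in these differences was not tested. The windows were drawn around gene bodies, several of them long, and the part of that choice in these shares was not tested. Peaks of 1 window share a locus, and peaks close to each other each count as the neighbour of the other. They are therefore not independent counts, and these intervals, that of the neighbour share above all, are likely too narrow. Of the 47, 9 had a protein-coding TSS at 3 kb or less, or 19.1% (9.15% to 33.3%), beside 20.5% (20.0% to 20.9%) of all. Of these 9, 6 were near a TSS of the member itself and 3 near one of HOXB2, HOXB3 or HOXB9.

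**Figure D4:**
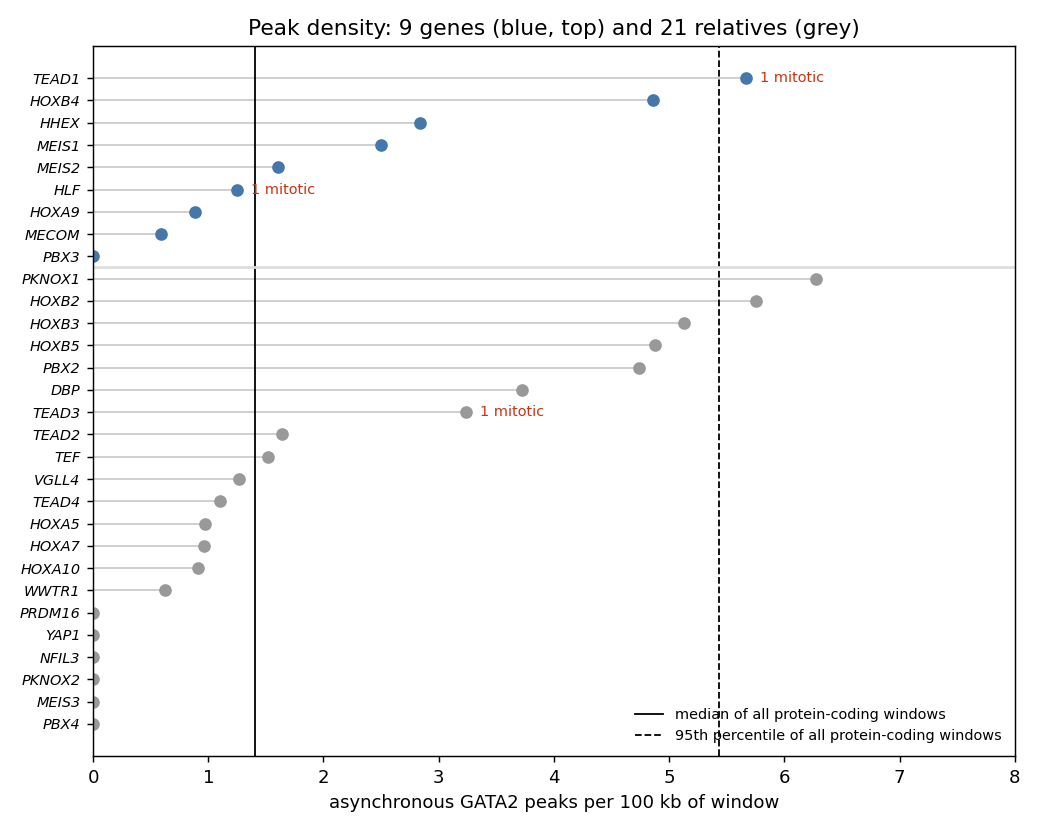
Asynchronous GATA2 peaks per 100 kb of window (horizontal axis) for the 9 genes (blue) and 21 related genes (grey), with the number of mitotic peaks in red where there were any. The solid line is the median of all protein-coding windows (1.41) and the dashed line their 95th percentile (5.43). TEAD1, at 5.67, PKNOX1, at 6.27, and HOXB2, at 5.76, lie past the dashed line.

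Density varied widely among the 9 genes. It was above the protein-coding median for TEAD1, HOXB4, HHEX, MEIS1 and MEIS2 and below it for HLF, HOXA9, MECOM and PBX3, with a median over the 9 of 1.60 peaks per 100 kb. Pooled over the 9 windows it was 1.95 per 100 kb, and 1.28 without TEAD1. The median of protein-coding windows was 1.41, and the value over the genome, which includes sequence outside such windows, was 1.03. The closest protein-coding TSS belonged to the member itself for 38 of the 47 peaks, or 80.9% (66.7% to 90.9%). The other 9 are the peak at HOXA9, the 5 at HOXB4 and the 3 downstream of TEAD1. The windows were drawn around the members, so the share of 80.9% follows in part from the rule. With TSSs of every gene type it was 44.7%.

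Relatives of the 9 genes were examined by the same window rule, and 21 are described here. Of these, 15 held an asynchronous peak and 1 a mitotic one, beside 76.0% and 11.7% of all protein-coding windows. Counted once each, 44 asynchronous peaks lay in their windows, and 6 of the 44 also lay in the HOXA9 or HOXB4 window.

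Of the TALE relatives, PKNOX1 had 10 asynchronous peaks, PBX2 had 5 and PBX4, MEIS3 and PKNOX2 had none, and no mitotic peak was found at any of these. Among the TEAD genes and their cofactors, TEAD3 and VGLL4 had 4 asynchronous peaks each, TEAD2, TEAD4 and WWTR1, which encodes TAZ, had 2 each and YAP1 had none. TEAD3 had a mitotic peak outside the gene, from 35468022 to 35468553 on chromosome 6, without a GATA match and nearest to RPL10A. The PAR bZIP genes DBP and TEF had 4 and 2 asynchronous peaks and no mitotic peak, and the related repressor gene NFIL3 had none. PRDM16, the relative of MECOM, had no peak in its window of 469454 bp. HOXA5, HOXA7 and HOXA10 shared the single peak of HOXA9, and HOXB2, HOXB3 and HOXB5 had 6, 8 and 5 asynchronous peaks, in part those of HOXB4.

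**Figure D5:**
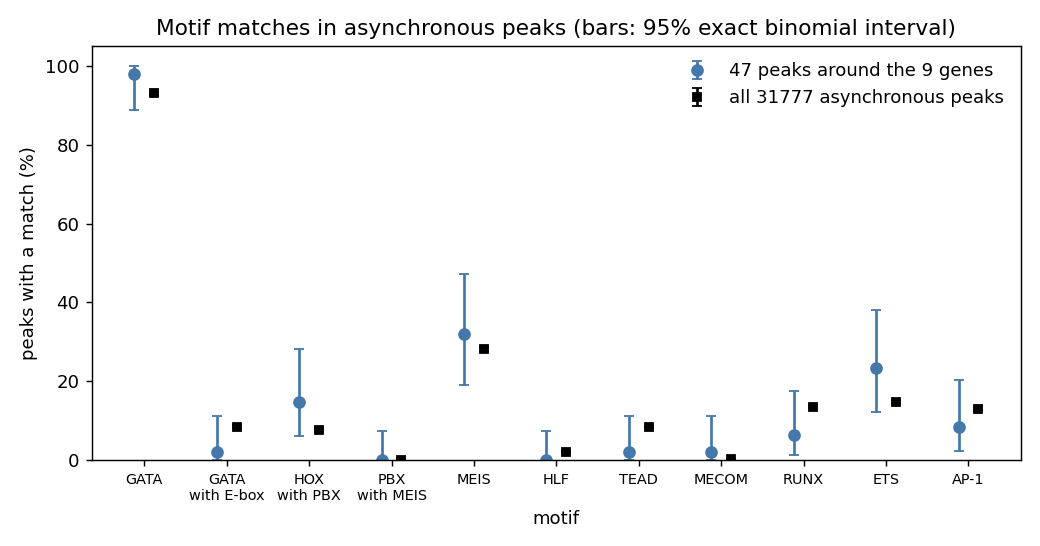
Share of asynchronous peaks (vertical axis, percent) with at least 1 match to each motif (horizontal axis), for the 47 peaks around the 9 genes (blue) and all 31777 asynchronous peaks (black), with 95% exact binomial intervals. GATA matches are in 97.9% of the 47, and the blue interval includes the black point for every motif shown, HOX with PBX (14.9%) and ETS (23.4%) among them.

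At least 1 GATA match was found in 46 of the 47 peaks, or 97.9% (95% exact binomial interval 88.7% to 99.9%), beside 93.0% of all asynchronous peaks and 42.6% (32.4% to 53.2%) of width-matched stretches of sequence taken 5 kb away on both sides. No stretch was left out for lying on another GATA2 peak, so some may hold one. The mean number of matches was 2.45 ± 1.79 (SD over 47 peaks), beside 2.51 over all peaks. Motifs of the members' own proteins were searched as fixed strings on both strands. The HOX with PBX string TGATTNAT, where N is any base, was in 7 peaks, or 14.9% (6.20% to 28.3%), beside 7.59% of all peaks. The stretches 5 kb away held it in 9.57% (4.47% to 17.4%). The 7 peaks lay at MEIS1, MEIS2, HLF, HOXB4 (2 peaks) and TEAD1 (2 peaks), and both bookmarked asynchronous peaks were among them. In neither case did the string lie inside the mitotic peak. Its share over all bookmarked peaks was not counted. The MEIS string TGACAG was in 15 peaks, or 31.9% (19.1% to 47.1%), beside 28.3%. It was in 3 of the 4 MECOM peaks and in the HLF mitotic peak, from 55344502 to 55344507.

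The longer joint string of PBX with MEIS (which ends in the MEIS string) and the HLF strings TTACGTAA and TTATGTAA were in none of the 47 peaks, which allows shares of up to 7.55% by the exact interval, and in 0.183% and 2.19% of all. The TEAD string CATTCCA was in 1 peak, or 2.13% (0.0539% to 11.3%), beside 8.46%, and that peak was at HHEX. No TEAD string was found in the 21 peaks of TEAD1. The MECOM string, which ends in AGATAA and so counts as a GATA match too, was in 1 peak, at HOXB4 from 48548863 to 48548872, and in 0.349% of all. Among motifs of GATA2 partners, the ETS string AGGAAGT was in 11 peaks, or 23.4% (12.3% to 38.0%), beside 14.9%. The RUNX string AACCACA was in 3, or 6.38% (1.34% to 17.5%), beside 13.6%, and the AP-1 strings TGACTCA and TGAGTCA were in 4, or 8.51% (2.37% to 20.4%), beside 13.04%. The interval of each of these shares includes the share of all peaks. In equal lengths of 200 bp around the midpoint, HOX with PBX was in 8.51% of the 47 and 3.65% of all, ETS in 10.6% and 8.55%, and GATA in 83.0% and 84.9%. A match is a description of the reference sequence and does not show that the factor was bound.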

How the data were processed

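GATA2 ChIP-seq peaks of asynchronous and mitotic K562 cells were used, with 1 library per condition. Per the paper's methods and the submitters' processing notes, the authors aligned reads to hg38 with BWA 0.7.12, kept uniquely mapped reads, extended them, called peaks with MACS2 2.1.0 and Genrich 0.6.1 and removed blacklisted regions. How both callers were combined is not given in the sources used here. Each deposited list holds 3 columns, namely the chromosome and the start and end of the peak in bp, with no score or read count, so depth is unknown. Coordinates are hg38, counted from 1. No peak passed a chromosome end.

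Gene bodies and TSSs were those of GENCODE release 44, and windows added 50 kb on each side. Peaks sharing at least 1 base were called bookmarked. Distances run from the peak midpoint. Motif strings were matched on both strands of the reference. Shares carry 95% exact binomial intervals, and no test between conditions was made. The genes, relatives, motifs and peaks described, chosen with earlier results of these data known, follow a written rule, which takes all 9 genes, mitotic peaks and the peaks they overlap, and per window the widest peak, the one nearest to a TSS and the one with most GATA matches. The composite, tandem and facing matches were added after their sequences were seen. Some items are not reported here, among them 1 of the relatives, so counts over the relatives do not cover the whole list. Alternatives changed the window, assignment to genes, overlap, peaks used, motif and TSS distance. Planted overlaps and matches were recovered in simulated data. The software was Python 3.11.15 with matplotlib 3.10.9, pysam 0.24.0, scipy 1.17.1 and numpy 2.4.6.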

Additional observations from a re-analysis of the deposited data

How the results depend on the processing

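Of 42 alternatives over 12 results, 24 stayed within the interval of the reported value or, for counts, within 1.5 times of it. For the bookmarked share of 4.26% that interval is wide, and the share was 2.13% with reciprocal overlap of at least 50%, 2.78% with 10 kb on each side and 8.33% for peaks no narrower than the median. The 3 shares of neighbours, introns and intergenic peaks without TEAD1 were added after the values were seen. The mitotic peaks, and the genes holding one, were 2 each, and 3 each with peaks given to the closest protein-coding TSS. The gene body alone, or with 10 kb on each side, left 1 mitotic peak at 1 gene (TEAD1), and 100 kb on each side gave 4 at 4 genes. The share of protein-coding genes with a mitotic peak was 4.01%, 5.75% and 18.5% by these rules, and 6.67% by the closest TSS. Reciprocal overlap of at least 50% left 1 gene, since the TEAD1 peaks share less. Without TEAD1, 26 asynchronous peaks, 1 mitotic peak and a density of 1.28 per 100 kb were counted, and the share with a GATA match was 100%. When narrower peaks than the median were dropped, 24 peaks, a density of 0.998 per 100 kb and a GATA share of 100% were found. The GATA share was 83.0% in 200 bp around the midpoint and 78.7% for AGATAA alone. The share near a protein-coding TSS was 8.51% within 1 kb. With TSSs of every gene type, the member was nearest to 44.7% of its peaks. No paired analysis was possible because each condition has 1 library and the labels pair none. Depth is unknown, so an absent mitotic peak is not shown to be an absence of GATA2.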
